A study of Mus musculus with 8 samples.

Results

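Peaks of open chromatin were followed at 10 genes of the mouse male germ line, of 21938 annotated protein-coding genes: *Zbtb16*, *Gfra1*, *Id4*, *Sall4*, *Dmrt1*, *Kit*, *Stra8*, *Sohlh1*, *Sohlh2* and *Nanos3*. They were listed for their roles before the pachytene stage, and every peak in a gene's body or within 5000 bp upstream of its 5′ end (mm10) was counted. ATAC-seq, which reads open chromatin by where a transposase can insert adapters, was carried out on pachytene spermatocytes from *Arid1a* WT (*Arid1a* fl/fl or fl/+, with no Cre listed) and *Arid1a* cKO (*Arid1a* fl/fl; *Stra8*-Cre Tg/0) adult males, with 4 libraries per genotype. *Arid1a* encodes a subunit of the BAF chromatin remodeling complex. Floxed animals were on a CD1 background, cells were enriched by sedimentation of pooled testes and cryopreserved, and whether the 4 libraries came from separate animals was not given in the sources used here. The *Stra8*-Cre transgene acts from spermatogonia onwards and excised *Arid1a* incompletely, so the cKO cells include some that kept ARID1A. The paper reports that cells without ARID1A arrest at mid-pachynema. In spreads from young males it found larger shares of leptotene, zygotene and mid-pachytene cells in cKO. The part that a shift in stage plays in the values below was not tested. Because the transgene carries *Stra8* promoter sequence, reads from its copies and from the endogenous *Stra8* promoter cannot be told apart in the cKO.

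Spermatogonia divide at the edge of the seminiferous tubule. Undifferentiated spermatogonia, which include the stem cells, depend on GDNF signalling and on factors such as PLZF (*Zbtb16*), while retinoic acid brings on differentiation, marked by KIT, and later STRA8, which works with MEIOSIN to start the meiotic program. By pachytene the cells have left these states behind, and many of the genes that define them are no longer transcribed at high levels.

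Each genotype was represented by 1 deposited peak list, with 19309 peaks in WT and 30244 in cKO, so there is no spread between replicates and no test between genotypes. Fold enrichment is the pileup of fragments at a peak's summit over the background of 1 reference library, with 1 added to each. The background was 4.33 fragments per base in WT and 5.11 in cKO, and it is the only measure of depth in the lists. A peak fills 1 row for each overlap with a peak of another replicate, and the number of rows is used as a measure of how often it recurred. Promoters of 8 of 8 pachytene markers, *Sycp3*, *Piwil1* and *Hspa2* among them, had a peak in both lists. Among markers of other testis cells, promoter peaks were found at 3 of 6 spermatid markers in WT and 4 in cKO, at 2 and 3 of 6 Sertoli markers, at 2 and 2 of 6 Leydig markers, and at 0 and 1 of 4 macrophage markers. The Sertoli markers *Wt1* (fold 3.27) and *Cldn11* (3.93), the spermatid marker *Prm1* (3.44) and the macrophage marker *Cd68* (3.11) had a promoter peak in cKO and none in WT, and *Gata4* (3.19) in WT and none in cKO, while neither list had one at *Sox9*, *Rhox5*, *Cyp11a1*, *Cyp17a1*, *Hsd3b1*, *Insl3*, *Csf1r*, *Adgre1*, *Ptprc*, *Tnp1* and *Acrv1*. Among markers open in both lists, the promoter fold was 3.19 in WT and 13.4 in cKO at *Amh* (Sertoli), 3.75 and 4.75 at *Star* and 3.38 and 5.89 at *Nr5a1* (Leydig), and 3.19 and 32.4 at *Prm2*, 17.8 and 32.4 at *Tnp2* and 7.88 and 13.6 at *Spaca1* (spermatid). *Prm2* and *Tnp2* are neighbours, and their cKO value is that of 1 wide peak that reaches both. Which cells these peaks came from, and the part of other cells in the values below, were not tested. *Arid1a* itself had 3 WT peaks and 1 cKO peak, which does not measure its excision.

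Among the 10 genes, 4 had a peak in WT (*Gfra1*, *Id4*, *Sohlh2* and *Nanos3*) and 8 in cKO, beside 56.5% and 65.0% of all protein-coding genes. The 4 genes with a peak in cKO alone were *Zbtb16*, *Kit*, *Stra8* and *Sohlh1*, and across the genome 8.79% of genes had that pattern. With the cKO list cut by rank to the length of the WT list, 2 of these 4, *Zbtb16* and *Stra8*, were left, and with a reach of 10000 bp upstream *Kit* and *Stra8* had a WT peak too. *Sall4* and *Dmrt1* had no peak in either list, a pattern of 34.7% of genes. No gene of the 10 had a peak in WT alone, beside 0.324% of all genes. A peak at a promoter, that is, touching the stretch between 1000 bp before and 100 bp after an annotated start, was present at 2 of the 10 genes in WT (*Id4* and *Sohlh2*) and at 5 in cKO, where *Zbtb16*, *Kit* and *Sohlh1* were added. With the cKO list at the length of the WT list the count was 2 in both, since all 3 of the added promoter peaks dropped out, as they also did with −log10 q at 5 or above. The corresponding shares of all genes were 49.7% and 56.7%, and 7.31% of genes had a promoter peak in cKO alone and 0.269% in WT alone, the latter a pattern that none of the 10 genes showed.

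The peaks numbered 6 in WT and 14 in cKO. Of the WT peaks, 5 shared sequence with a cKO peak and 1 did not (16.7%, beside 4.75% of all WT peaks). The 1 that did not, at *Nanos3*, lay within 1000 bp of a cKO peak. Of the cKO peaks, 5 were common and 9 were gained, meaning that they shared no base with a WT peak (64.3%, beside 43.5% of all cKO peaks). The gained peaks were mostly small: their median fold was 3.27 and their median width 399 bp, beside 3.44 and 507 bp for all 13144 gained peaks. On 3 or more rows stood 5 of the 9, among them a *Gfra1* peak with 1 row of only 14 bp, and 57.5% of all gained peaks. Of all peaks at the 10 genes, 3 of 6 in WT and 9 of 14 in cKO stood on 3 or more rows, beside 74.5% and 80.2% of the lists. Peaks covered 5653 bp of the 720015 bp of gene windows in WT (0.785%) and 12041 bp in cKO (1.67%). All peaks of the lists together covered 19.9 Mb in WT and 37.8 Mb in cKO.

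**Figure D1:**
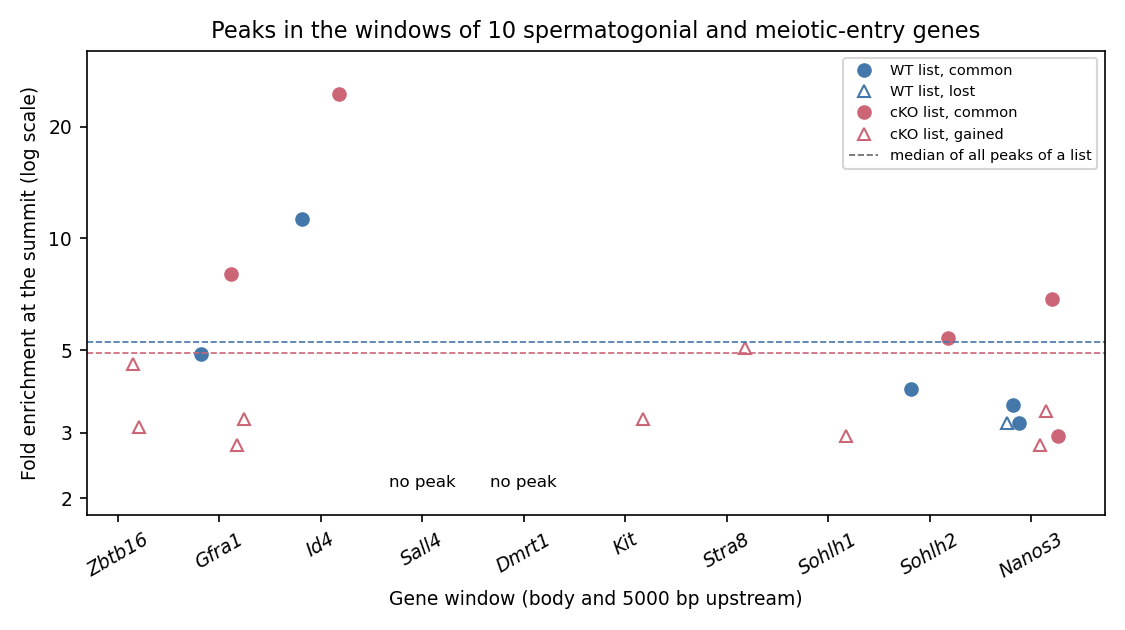
Fold enrichment of each peak (vertical axis, ratio of summit pileup to background, log scale) at the 10 genes, with WT peaks in blue and cKO peaks in red, circles for peaks common to both lists, triangles for peaks in 1 list, and dashed lines at the median fold of each list (5.25 in WT, 4.91 in cKO). *Id4* stands highest in both lists, at 11.3 in WT and 24.5 in cKO, and *Sall4* and *Dmrt1* have no point.

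Sequences from the mm10 reference are given for the 4 promoters next to or under a peak that the RefSeq promoter table holds, and for the centre of the strongest cKO peak of *Stra8*, *Gfra1* and *Nanos3*, since these carry the values that follow. The table (GRCm38.p6, 250 bases before to 50 after a start) held 7 of the 10 genes. All are written 5′ to 3′ on the gene's strand, promoters stop before the first exon, and capitals mark matches, on either strand, to 6 short motifs: CACGTG (E-box), AGGTCA (nuclear receptor half-site), GGGCGG (GC box), CCAAT, TGACGTCA (cyclic AMP response element) and TATAAA. Of all promoter windows, 7.15% held an E-box, 16.3% AGGTCA, 35.6% a GC box, 37.4% CCAAT, 1.79% TGACGTCA and 13.6% TATAAA, and the last 2 were in none of the 7 windows.
Id4 promoter, chr13:48260866-48261115, plus strand: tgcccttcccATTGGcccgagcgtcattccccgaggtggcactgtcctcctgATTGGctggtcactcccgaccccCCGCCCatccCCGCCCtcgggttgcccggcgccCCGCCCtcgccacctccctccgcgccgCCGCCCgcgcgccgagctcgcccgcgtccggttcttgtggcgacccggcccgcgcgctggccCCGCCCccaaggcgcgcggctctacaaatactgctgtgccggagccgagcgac
Kit promoter, chr5:75574737-75574915, plus strand: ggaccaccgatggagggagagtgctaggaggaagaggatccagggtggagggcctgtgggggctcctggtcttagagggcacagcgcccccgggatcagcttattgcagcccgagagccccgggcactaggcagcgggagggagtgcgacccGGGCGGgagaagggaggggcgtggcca
Sohlh1 promoter, chr2:25847249-25847498, minus strand: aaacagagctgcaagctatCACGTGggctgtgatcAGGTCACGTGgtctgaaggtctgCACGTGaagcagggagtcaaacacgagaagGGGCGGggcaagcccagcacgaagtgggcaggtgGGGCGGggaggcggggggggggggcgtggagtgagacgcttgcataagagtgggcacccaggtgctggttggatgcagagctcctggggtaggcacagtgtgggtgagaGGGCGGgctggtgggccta
Sohlh2 promoter, chr3:55181794-55182027, plus strand: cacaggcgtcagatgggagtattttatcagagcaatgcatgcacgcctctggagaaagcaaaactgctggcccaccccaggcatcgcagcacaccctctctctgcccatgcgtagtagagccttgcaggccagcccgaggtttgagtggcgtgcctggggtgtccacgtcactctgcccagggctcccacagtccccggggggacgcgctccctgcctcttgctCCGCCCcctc
Stra8 intronic peak, chr6:34921704-34921903, plus strand: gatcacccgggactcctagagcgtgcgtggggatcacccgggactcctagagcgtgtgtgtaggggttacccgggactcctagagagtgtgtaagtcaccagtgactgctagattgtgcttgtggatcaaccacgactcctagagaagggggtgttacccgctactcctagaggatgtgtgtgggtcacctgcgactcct
Gfra1 intronic peak, chr19:58260656-58260855, minus strand: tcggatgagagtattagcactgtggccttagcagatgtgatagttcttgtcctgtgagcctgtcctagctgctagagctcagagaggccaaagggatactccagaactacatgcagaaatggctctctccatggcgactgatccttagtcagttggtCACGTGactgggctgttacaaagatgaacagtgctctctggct
Nanos3 intronic peak, chr8:84183463-84183662, minus strand: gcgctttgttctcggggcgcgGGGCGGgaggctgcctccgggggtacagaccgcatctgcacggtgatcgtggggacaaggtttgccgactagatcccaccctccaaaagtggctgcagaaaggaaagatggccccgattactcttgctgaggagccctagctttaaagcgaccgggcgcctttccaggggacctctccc

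The genes of undifferentiated spermatogonia ranged from the strongest peak of the 10 genes to none at all. *Id4*, an inhibitor of DNA binding that marks stem cell-rich spermatogonia, had 1 wide peak over its start in both lists (gene at chr13:48261228-48266026, plus strand). The WT peak spanned chr13:48260615-48262952 (2338 bp, fold 11.3, −log10 q of 42.2) and the cKO peak chr13:48260615-48263013 (2399 bp, fold 24.5, −log10 q of 155), each on 3 rows. By rank of fold within their own lists these peaks stood at percentile 84.6 in WT and 96.1 in cKO, with ties given their middle rank. The starts of an antisense transcript, *A330033J07Rik*, and of a noncoding RNA, *Gm49291*, lie on the other strand within 1000 bp of this peak, so the open region cannot be given to *Id4* alone. The whole of the printed *Id4* promoter lay inside the peak of both lists. Its 300-base window had a GC content of 73.3%, above 94.5% of the 32817 windows of the table (median 52.7%), and held 5 GC boxes, a number reached by 2.71% of windows, with 2 CCAAT matches.

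*Gfra1*, the GDNF co-receptor (chr19:58235604-58455909, minus strand), had no promoter peak in either list. Its strongest peak lay deep in an intron, in WT centred 193830 bp from the nearest annotated start of the gene. In WT it spanned chr19:58260115-58261158 (1044 bp, fold 4.88, 3 rows) and in cKO chr19:58259909-58261601 (1693 bp, fold 8.02, 3 rows), so the open interval was 1.62 times as wide in cKO. The printed centre held 1 E-box, as did 4.36% of the equally long centres of all cKO peaks. 2 more intronic peaks were gained, chr19:58358229-58358562 (334 bp, fold 2.78, 3 rows) and chr19:58361006-58361267 (262 bp, fold 3.27, 2 rows). Of the 3 rows of the first, the narrowest spanned only 14 bp. Both were narrow and low in the list: the first stood at percentile 4.92 of cKO folds, with ties given their middle rank.

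*Zbtb16*, which encodes the zinc-finger repressor PLZF that maintains the stem cell pool (chr9:48654297-48836222, minus strand), had no WT peak in its window, and the nearest WT peak was 147632 bp from a start. In cKO 2 peaks were gained. The larger, chr9:48815145-48816687, was intronic, centred 20306 bp from the 5′ end of the gene, with a width of 1543 bp, a fold of 4.58 and 3 rows. Its fold was higher than that of 83.8% of all gained peaks. Of 60 overlapping 50-base stretches sampled in this peak, 56 occur once in the genome and 4 have copies outside the peak. The smaller covered a start, chr9:48835992-48836363 (372 bp, fold 3.11, 1 row), so it recurred in a single overlap.

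*Sall4*, a zinc-finger factor of germ line stem cells (chr2:168748332-168767943, minus strand), and *Dmrt1*, a factor that holds spermatogonia back from meiosis (chr19:25505618-25604329, plus strand), had no peak. The nearest peaks lay 5760 bp (WT) and 5657 bp (cKO) outside the window of *Sall4*, and 1566 bp and 6163 bp outside that of *Dmrt1*. Lack of a peak is not uncommon at this length. Of protein-coding genes with windows of 50 to 200 kb, as for *Dmrt1*, 19.1% had none, and of those with windows of 15 to 35 kb, as for *Sall4*, 30.1%. A missing peak says that no enrichment passed the authors' threshold in the overlapping replicates, not that the chromatin was closed.

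**Figure D2:**
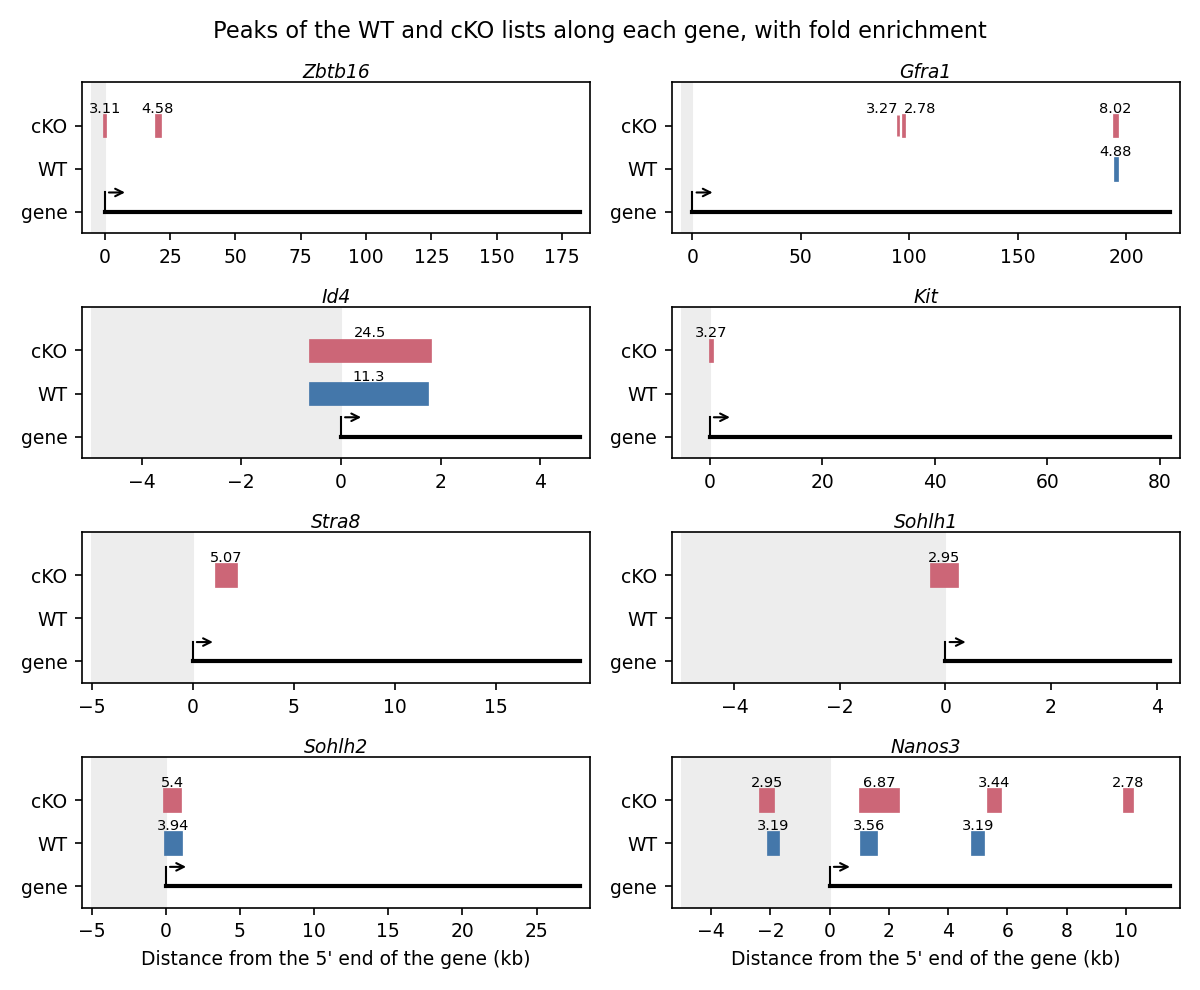
Position of every WT peak and cKO peak (horizontal axis, distance in kb from the 5′ end of the gene, read in the direction of transcription) at the 8 genes that have any, with the 5000 bp upstream shaded and the fold enrichment written above each bar. *Id4* and *Sohlh2* have overlapping peaks at the start in both lists, and *Zbtb16*, *Kit*, *Stra8* and *Sohlh1* have bars in the cKO row alone.

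At the remaining genes, *Sohlh2*, *Sohlh1*, *Kit*, *Stra8* and *Nanos3*, the folds ran from 2.78 to 6.87, all below that of *Id4* in either list. Both ends of this range were *Nanos3* peaks. *Sohlh2*, a bHLH factor of differentiating spermatogonia (chr3:55182028-55209957, plus strand), had a peak over its start in both lists. It spanned chr3:55181987-55183021 in WT (1035 bp, fold 3.94, 2 rows) and chr3:55181903-55182993 in cKO (1091 bp, fold 5.40, 3 rows). Its promoter window held 1 GC box.

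*Sohlh1*, the partner of *Sohlh2* (chr2:25842995-25847248, minus strand), had a peak in cKO alone. It covered the start, chr2:25847035-25847527, with a width of 493 bp, a fold of 2.95 and 2 rows. This made it one of the weakest of the 14 cKO peaks, at percentile 9.51 of all cKO folds, with ties given their middle rank. The nearest WT peak was 16337 bp from a start. The printed promoter, all of it inside the cKO peak, held 3 E-boxes and 3 GC boxes. One E-box overlaps the AGGTCA match by 2 bases, so they print as a single run of capitals. Of all windows, 29 (0.0884%) held 3 or more E-boxes.

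*Kit*, the receptor for stem cell factor (chr5:75574916-75656722, plus strand), had a small peak in cKO alone. It spanned chr5:75574965-75575363 (399 bp, fold 3.27, −log10 q of 4.24), began 49 bp inside the gene and ran over 154 bp of exon and 245 bp of intron, on 3 rows that all gave the whole interval. The printed *Kit* promoter, cut before the first exon, therefore ended just before the peak. The full RefSeq window, chr5:75574737-75575036, ran on into the peak, and its RefSeq start lay inside it. In WT the nearest peak was 5298 bp from a start, 298 bp beyond the window.

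*Stra8*, which retinoic acid turns on at the onset of meiosis (chr6:34920163-34939344, plus strand), also had a peak in cKO alone. It lay at chr6:34921296-34922310, wholly within an intron, 1015 bp wide and 286 bp from the nearest annotated start, with a fold of 5.07, a −log10 q of 11.7 and 3 rows that all held the full interval. Of all gained peaks, 89.5% had a lower fold. The nearest WT peak lay 9141 bp from a start, 4141 bp outside the window.

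The sequence under the *Stra8* peak is a tandem repeat. A 9-base element, ACTCCTAGA, chosen after the sequence was seen as the most frequent in the peak, occurs 27 times at a median spacing of 31 bp (28 to 65 bp), and 5 times in the printed stretch, where it is in lower case. It occurs 2 more times in the 2000 bp before the peak and 12 times in the 2000 bp after it. The peak is the 1 cKO peak with as many copies, and 252 cKO peaks held any, but the element was taken from this peak. By a measure not drawn from it, 52.7% of bases in the printed stretch equalled the base 31 bp before. That was its best share over lags of 10 to 100 bp, and 94.0% of cKO peaks had a lower one. Of 39 overlapping 50-base stretches sampled in the peak, 28 (71.8%) occur once in the genome, and the repeated ones have no copy outside the peak. Reads could therefore be placed at this array as a whole but in part not at a given unit, and the part that the repeat or the Cre transgene plays in the difference between the lists was not tested. The *Stra8* promoter window itself, with 2 AGGTCA matches and 4 CCAAT matches, had no peak over it.

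*Nanos3*, an RNA-binding protein that protects germ cells (chr8:84173731-84185217, minus strand), had the most peaks, 3 in WT and 4 in cKO, none at a start. The annotated body begins with a long noncoding transcript, and the coding transcripts start further in, at position 84176552. The strongest peak was intronic to the long transcript, chr8:84183638-84184170 in WT (533 bp, fold 3.56, 3 rows) and chr8:84182924-84184200 in cKO (1277 bp, fold 6.87, 3 rows), where it was 2.40 times as wide. A second common peak lay upstream, chr8:84186957-84187283 in WT (327 bp, fold 3.19, 1 row) and chr8:84187125-84187562 in cKO (438 bp, fold 2.95, 1 row). Both common peaks lay more than 5000 bp upstream of the coding start, so they were counted only through the long noncoding transcript.

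The remaining *Nanos3* peaks were in 1 list each. The peak lost in cKO, chr8:84180028-84180403, was 376 bp wide with a fold of 3.19 on 2 rows. The gained peaks were chr8:84174999-84175298 (300 bp, fold 2.78, 2 rows) and chr8:84179458-84179882 (425 bp, fold 3.44, 3 rows). The latter lies within 1000 bp of the starts of the microRNA genes *Mir181c* and *Mir181d*, so it cannot be given to *Nanos3* alone. It also lies within 1000 bp of the lost peak, and both were low. The summit pileup was 16 fragments at the lost peak in WT and 20 at this gained peak in cKO. The gained peak nearest the coding start was 1254 bp from it.

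At the 5 loci with a peak in both lists the enrichment was compared as the summit pileup over the background of each list. *Id4* had 59 fragments in WT and 149 in cKO, a ratio of 2.14 (95% exact interval, 1.57 to 2.94). The intronic *Nanos3* peak had 18 and 41 fragments, a ratio of 1.93 (1.08 to 3.57). At these 2 loci the interval lay above 1. *Gfra1* had 25 and 48 fragments (ratio 1.63, 0.983 to 2.75), *Sohlh2* 20 and 32 (1.36, 0.752 to 2.50), and the upstream *Nanos3* peak 16 and 17 (0.900, 0.428 to 1.90), and these 3 intervals include 1. The intervals cover counting error in 2 reference libraries and nothing between animals. They treat each summit as a count at a fixed site, and do not allow for its choice as the highest point of a listed peak.

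Most peaks were higher in the cKO list: over all 16967 shared loci the median ratio was 1.43 (quartiles 1.20 and 1.65), 89.7% of ratios were above 1, and 4.80% were at or above 2, as *Id4* was among the 5. A ratio at or under 0.5 was found at 0.0472% of shared loci and at none of the 5. The peak was wider in cKO at all 5, as at 92.7% of shared loci, with a median width ratio of 1.34 beside 1.49. Read against that median, *Id4* is the 1 locus of the 5 whose interval lies above it, and 97.7% of shared loci had a lower ratio. Among the 1318 shared loci with a WT pileup within 10% of that of *Id4*, the median was 1.55 and 99.2% were lower. The intronic *Nanos3* peak exceeded 93.2% of shared loci, *Gfra1* 72.3%, *Sohlh2* 40.4% and the upstream *Nanos3* peak 5.69%. The median of the 5 was 1.63.

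**Figure D3:**
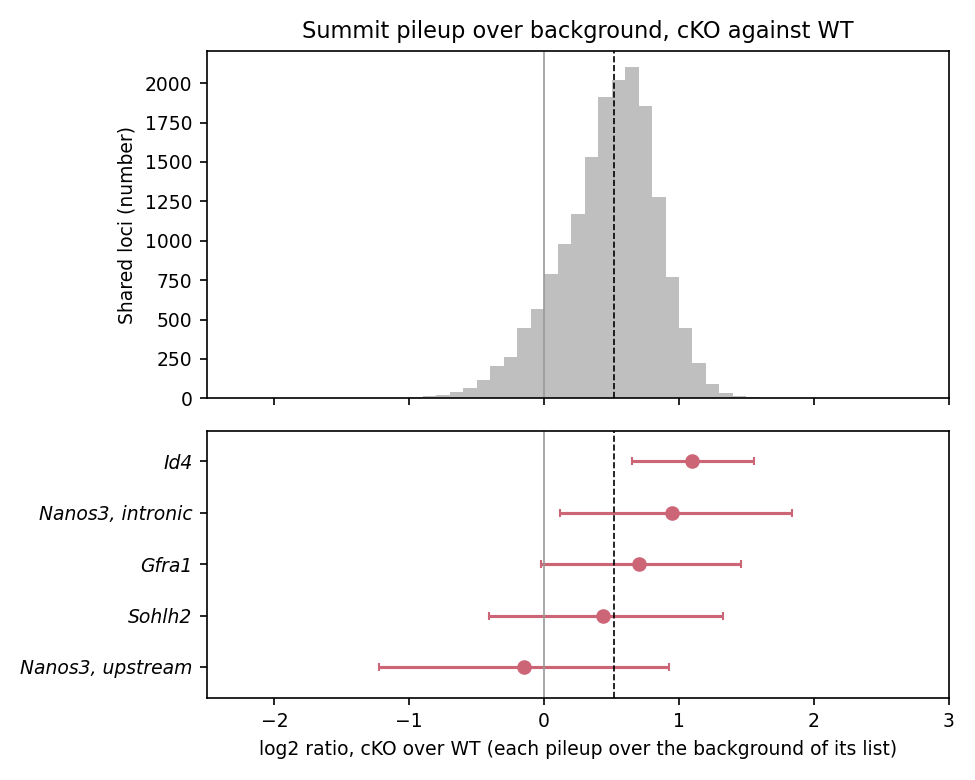
Horizontal axis, log2 ratio of cKO to WT summit pileup, each over its list's background: the number of shared loci at each ratio (16967 in all) above, and the 5 shared loci with 95% exact intervals below, with a dashed line at the median of all and a grey line at 0. The interval of *Id4* (log2 ratio 1.10) lies wholly above the median of 0.52, and the other 4 intervals include it.

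The 9 gained peaks were in the comparison because the cKO list holds them, and no WT pileup is given at these sites. Brought to the WT depth, their cKO pileups came to 25.4 fragments at *Stra8*, 22.9 at the intronic *Zbtb16* peak and between 13.6 and 16.9 at the other 7, and the lowest summit pileup of any listed WT peak was 13. The lower exact bounds of those 7, *Kit* and *Sohlh1* among them, lay under 13. These values describe the size of the gained peaks and do not show that WT differed, since a WT peak was listed only where replicates overlapped.

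Further genes of the same pathway, from lists chosen with earlier results known, had a promoter peak at 28 of 41 in WT and 29 of 41 in cKO, beside 2 and 5 of the 10 genes, with no test of the difference. The shares of all protein-coding genes were 49.7% and 56.7%. Genes of undifferentiated spermatogonia had a promoter peak at 6 (WT) and 7 (cKO) of 15, with *Lhx1*, a LIM homeobox factor, in cKO alone (fold 5.07). Genes of differentiation and retinoic acid signalling had one at 8 of 11 in both lists, genes of meiotic entry at 9 of 10, and members of the repressor complex that holds back meiotic genes at 5 of 5. The meiotic entry list includes genes of meiotic prophase such as *Dmc1*, *Spo11* and *Sycp3*, the last also counted among the pachytene markers. The highest cKO promoter folds were those of *Meioc* (20.8 in WT, 33.9 in cKO), needed to stay in meiotic prophase, *Etv5* (17.8 and 29.8), a target of GDNF, *Prdm9* (12.2 and 24.1), which places recombination, and *Max* (13.1 and 23.2), a partner in that repressor complex. *Meiosin*, annotated as *Gm4969*, had a promoter peak in both lists, whereas its partner *Stra8* had none in either.

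**Figure D4:**
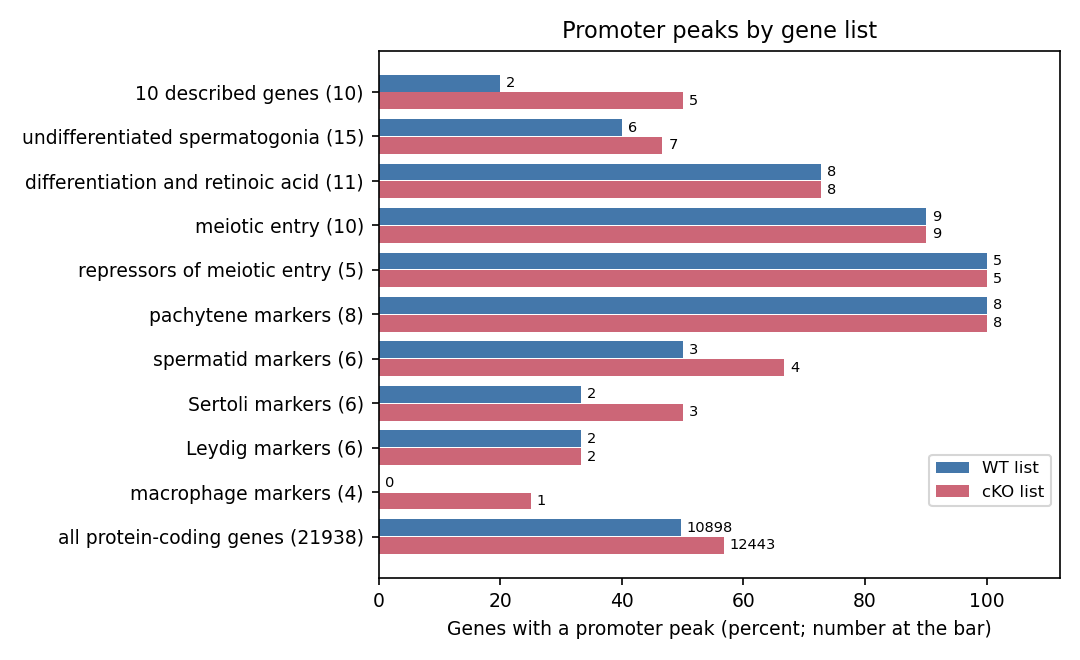
Share of genes with a promoter peak (percent, from 0) in WT and cKO for the 10 genes, the pathway lists, the marker lists and all protein-coding genes, with the number of genes at each bar and the size of each list in brackets. The 10 genes go from 2 to 5 of 10, and the meiotic entry and repressor lists stay at 9 of 10 and 5 of 5 in both.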

How the data were processed

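ATAC-seq libraries of pachytene spermatocytes were grouped by their genotype labels. Per the labels and methods, the authors trimmed reads, aligned them to mm10 with bowtie2, removed duplicates and mitochondrial reads, called peaks with MACS2 (no local background), filtered out blacklisted regions and then intersected the peaks of the replicates. No filter on mapping quality is stated. The deposited columns hold a score, the fold enrichment (a linear ratio), −log10 p and −log10 q values, and a summit offset recorded as other and not used. Which library is the reference is not stated, and the depth of the others is unknown.

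Rows were collapsed by peak name. The background and the summit pileups were solved from the grid of deposited fold values, and Poisson p-values recomputed from them matched the deposited −log10 p within 1% at 99.99% (WT) and 99.8% (cKO) of peaks. Common peaks share at least 1 bp. Ratios carry exact conditional 95% intervals, for counting error only. Genes are GENCODE vM21 (GRCm38, the build of mm10), and sequences are from RefSeq GRCm38.p6. Work used Python 3.11.15, pandas 2.3.3, SciPy 1.17.1 and pysam 0.24.0, and was tested on simulated data. All 10 genes are described. From the pathway lists, genes with a promoter peak in 1 list and the 4 highest cKO folds are named. The genes and lists were chosen with earlier results of these data known. With 1 list per genotype no test was run. Alternatives were stricter −log10 q, peaks on 3 or more rows, equal list lengths, other windows and overlaps, and rows as the unit.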

Additional observations from a re-analysis of the deposited data

How the results depend on the processing

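Each count was repeated under other settings. Of the 87 alternative values, 49 were counted as near the value reported, which is a loose grouping. It took in 6 WT genes with a peak with 10000 bp upstream (4 reported) and 6 gained peaks on 3 or more rows (9 reported). With promoters of 3000 bp on either side, 3 genes in WT and 7 in cKO had a promoter peak. *Nanos3* was then added in both lists and *Stra8* in cKO. The ratio at shared loci was counted among the 49 throughout, although its median log2 value, 0.702 as reported, was not fixed. It was 0.508 with 10000 bp upstream, beside 0.520 over all shared loci. On 3 or more rows it was 0.949, and with −log10 q at 10 or above it was 1.10, with 1 common cKO peak left. Values outside the 49 moved as follows, with the filters applied to both lists.

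With −log10 q at 10 or above, the genes with a peak were 1 in WT and 5 in cKO, the peaks 1 and 5 (1 common cKO, 4 gained, 0 lost), the promoter peaks 1 and 2, and the covered bases 2338 and 7475 bp. With −log10 q at 5 or above, peaks were 3 and 6 (3 common cKO, 3 gained, 0 lost), with 2 promoter peaks in cKO. On 3 or more rows, they were 3 and 9 (3 common cKO, 0 lost), with promoter peaks at 1 and 3 genes. With the cKO list cut to the length of the WT list by rank, 6 cKO peaks (2 gained) remained against 2 lost WT peaks, 2 genes had a promoter peak in cKO, and 2 genes, *Zbtb16* and *Stra8*, had a peak in cKO alone. With 10000 bp upstream, 2 genes had a peak in cKO alone, since *Kit* and *Stra8* then had a WT peak, and 8 cKO peaks were common. Requiring 50% overlap left 2 lost peaks. With rows as the unit there were 14 WT and 35 cKO rows (13 common, 22 gained, 2 lost). Counting a promoter peak by its centre, a setting added after seeing the data, gave 0 in WT and 2 in cKO. The *Kit* and *Sohlh1* peaks were absent with equal list lengths and at both −log10 q limits, and the cause was not tested.

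No paired analysis was possible because each genotype has 1 list and no value per replicate. Leaving out a replicate could not be done for the same reason, and depth beyond the reference library is unknown.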
